A study of Mus musculus with 2 samples.

Results

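The acinar lineage transcription factors described here are Ptf1a, Rbpjl, Bhlha15, Nr5a2, Gata4, Gata6, Creb3l1 and Myc. They were taken as a list of names, not by their values, and all 8 were found among the 22023 genes measured in both libraries. The cells came from pancreata of mouse embryos at day E15.5, 1 library from Mettl3pKO embryos, whose Pdx1+ pancreatic progenitor cells were made to lack Mettl3, and 1 library from WT embryos. Mettl3 encodes the catalytic part of the complex that places N6-methyladenosine marks on RNA. Because the deletion was directed to Pdx1+ progenitors, cells that do not descend from them (mesenchyme, mesothelium, endothelium and blood cells) should keep the gene in Mettl3pKO embryos. The labels do not say how many embryos were pooled. With 1 library per genotype no difference below has a replicate check, no test was possible, and every interval is a 95% interval of counting error only.

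Acinar cells make and store the digestive enzymes of the pancreas, and they arise from the tips of the branching fetal epithelium while duct and endocrine cells arise from its trunk. Ptf1a, a basic helix-loop-helix factor, binds DNA with an E protein and a further partner. That partner is Rbpj in early progenitors and Rbpjl, its pancreas-restricted relative, in differentiating acinar cells. The complex with Rbpjl, called PTF1, activates the enzyme genes. Nr5a2 is an orphan nuclear receptor that acts on many of the same genes. Bhlha15, also called Mist1, is a basic helix-loop-helix factor that scales up the secretory machinery. Gata4 and Gata6 are zinc finger factors of the early pancreas. Creb3l1 is a membrane-bound factor of the endoplasmic reticulum that is cut and released in secretory and matrix-producing cells. Myc drives cell growth and division. The question asked of the data was at what level each factor was found in each cell class, how it went with the enzymes of the same cell, and how the libraries differed.

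The promoters of Rbpjl and of both enzymes used as yardsticks, chymotrypsinogen B (Ctrb1) and carboxypeptidase B (Cpb1), are shown because they are the regions at which the PTF1 complex would act on these 3 genes. Each window holds 250 bases before and 50 bases after the RefSeq transcription start (GRCm38.p6), written in the direction of the gene. Rbpjl lies on the plus strand, chr2:164402944-164403243, Ctrb1 on the minus strand, chr8:111690961-111691260, and Cpb1 on the minus strand, chr3:20275684-20275983. Capitals mark a PTF1-type E-box (CACCTG or CAGCTG, on either strand) and a TC box (TTTCCC, on either strand).
Rbpjl: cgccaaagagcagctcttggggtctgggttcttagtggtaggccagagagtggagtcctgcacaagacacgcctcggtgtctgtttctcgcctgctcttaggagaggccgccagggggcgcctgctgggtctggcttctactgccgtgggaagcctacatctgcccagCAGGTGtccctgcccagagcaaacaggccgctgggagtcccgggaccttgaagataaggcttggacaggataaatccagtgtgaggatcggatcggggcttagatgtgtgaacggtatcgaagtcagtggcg
Ctrb1: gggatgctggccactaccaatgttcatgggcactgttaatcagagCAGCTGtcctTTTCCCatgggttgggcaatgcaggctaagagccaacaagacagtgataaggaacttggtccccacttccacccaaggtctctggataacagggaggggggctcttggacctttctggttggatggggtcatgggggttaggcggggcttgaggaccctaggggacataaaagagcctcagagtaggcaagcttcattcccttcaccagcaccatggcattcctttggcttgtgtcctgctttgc
Cpb1: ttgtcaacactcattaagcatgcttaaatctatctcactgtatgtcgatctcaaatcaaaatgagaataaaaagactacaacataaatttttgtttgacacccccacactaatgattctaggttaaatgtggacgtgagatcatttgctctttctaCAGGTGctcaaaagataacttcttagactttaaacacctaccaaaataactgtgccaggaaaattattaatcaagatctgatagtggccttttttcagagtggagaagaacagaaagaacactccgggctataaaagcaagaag
The Ctrb1 window held an E-box whose first base lay at position -205 from the start and a TC box at -195. The Rbpjl window held an E-box at -82 and the Cpb1 window an E-box at -94, and neither held a TC box. Over 32851 RefSeq promoter windows of this length, 32.9% held such an E-box, 25.2% a TC box and 8.16% both, so that these matches are descriptions of letters and not sites. The GATA motif AGATAA, in 11.2% of windows, was found at -31 in Rbpjl and at -82 in Cpb1. Windows were used for 4 of the 8 factors, among them Bhlha15 with E-boxes at -200 and -55 and Ptf1a with no match to any of the 5 motifs searched. The other 2 motifs were the nuclear receptor motif AAGGTCA (4.72% of windows) and the Myc E-box CACGTG (7.15%). Neither lay in any of these windows. Nr5a2 had a pair of windows with a TC box in each, at 5 and 13, and an E-box at -66 in one of them. The other Nr5a2 window held the GATA motif at -217 and -200. Windows of Gata4, Gata6, Creb3l1 and Myc were not used here.

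The Mettl3pKO library held 3624 complete cells with a median of 16481 UMIs (counted RNA molecules), and the WT library 6384 complete cells with a median of 10824. The lowest total was 10719 UMIs in Mettl3pKO and 3803 in WT, and both tables ended inside a line, so that shallower cells may be missing from either. 33 cell labels occur in both libraries. Mitochondrial UMIs took a median share of 9.41% in Mettl3pKO and 6.87% in WT. After filters 3622 Mettl3pKO and 6030 WT cells were kept. Classes were built from clusters made without the 8 factors. Mettl3 itself stood at 7.27 UMIs per 1000000 UMIs (CPM) in Mettl3pKO acinar-like cells and at 9.23 CPM in WT ones, a ratio of 0.787 (0.663 to 0.935). The Mettl3 ratio was 0.700 (0.532 to 0.912) in duct and trunk-like, 0.680 (0.430 to 1.05) in alpha-like and 0.646 (0.382 to 1.06) in beta-like cells. In classes that should keep the gene the ratio was 0.791 (0.568 to 1.08) in mesenchyme-like and 0.942 (0.502 to 1.75) in immune-like cells. It was 0.333 (0.125 to 0.761) in erythroid-like and 1.56 (0.892 to 2.74) in mesothelium-like cells. The sources used here do not say whether these reads lie in the deleted part of the gene, so that the value checks the label only weakly.

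Acinar-like cells numbered 2118 of the 3622 Mettl3pKO cells (58.5%) and 1855 of the 6030 WT cells (30.8%). All 14 acinar markers were found in them, at a summed 55659 CPM in Mettl3pKO and 98019 CPM in WT. These sums include Ctrb1 and Cpb1, which helped to name the class. The 10 duct and trunk markers summed to 1796 CPM in Mettl3pKO acinar-like cells and 1156 CPM in WT ones, against 5438 CPM and 7464 CPM in the duct and trunk-like cells of those libraries. In the acinar-like class the median cell had 17428 UMIs and 10.7% mitochondrial UMIs in Mettl3pKO, against 13141 UMIs and 6.22% in WT. By at least 2 UMIs over 9 proliferation genes, 85.6% of the Mettl3pKO and 66.4% of the WT acinar-like cells were called proliferating. The call used each cell's full depth, so that deeper cells pass it more readily. With cells of at least 13000 UMIs alone the ratio of Mettl3pKO to WT was 0.595 for Rbpjl and 1.33 for Ptf1a, and with at most 10% mitochondrial UMIs it was 0.641 and 1.37, beside the values for all cells that follow.

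In acinar-like cells Rbpjl was lower and Ptf1a higher in Mettl3pKO than in WT. Rbpjl, the PTF1 subunit of differentiating acinar cells, stood at 646 CPM in Mettl3pKO and 1178 CPM in WT, from 26035 and 32162 UMIs. Its ratio of Mettl3pKO to WT was 0.548 (0.539 to 0.557), or 1.82 times higher in WT. Ptf1a, its DNA-binding partner, stood at 329.5 CPM in Mettl3pKO and 231 CPM in WT, from 13285 and 6313 UMIs, a ratio of 1.42 (1.38 to 1.47). The partners of one complex thus lay on opposite sides of equality, with no overlap of their intervals. Over all kept cells, where the acinar share also counts, Rbpjl was at 449 CPM in Mettl3pKO and 453 CPM in WT (ratio 0.992), and Ptf1a had a ratio of 2.58.

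The other helix-loop-helix and nuclear receptor factors of the acinar programme differed less. Bhlha15 was at 239 CPM in Mettl3pKO and 234 CPM in WT, a ratio of 1.02 (0.989 to 1.05). Nr5a2 was at 291 CPM in Mettl3pKO and 249 CPM in WT, a ratio of 1.17 (1.14 to 1.21). Among the zinc finger factors, Gata4 was at 180.4 CPM in Mettl3pKO and 175 CPM in WT (ratio 1.03, 0.993 to 1.07). Counting error thus does not separate the libraries for Bhlha15 and Gata4. Gata6, by contrast, was at 85.3 CPM in Mettl3pKO and 58.95 CPM in WT, a ratio of 1.45 (1.36 to 1.54).

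Creb3l1 and Myc lay close to Gata6 and Ptf1a in their ratios. Creb3l1 was at 130.0 CPM in Mettl3pKO and 88.8 CPM in WT, a ratio of 1.46 (1.40 to 1.54). Myc was at 100.7 CPM in Mettl3pKO and 70.3 CPM in WT, a ratio of 1.43 (1.36 to 1.51). By the size rule used throughout (at least 1.5-fold, with at least 20 UMIs over both libraries), 0 of the 8 factors were higher in Mettl3pKO acinar-like cells, against 20.8% of the 13598 genes measured. Only Rbpjl among the 8 was lower by that rule, as were 8.85% of all genes. That call ended when the clusters led by Cckar and Spink1, by Try10 and Cpb1 and by Gm10334 and Prss3 were left out. Rbpjl then had a ratio of 0.685. The median log2 ratio was 0.37 over the 8 factors and 0.17 over all genes. Of the yardstick enzymes, Ctrb1 was at 28368 CPM in Mettl3pKO and 52033 CPM in WT (ratio 0.545), and Cpb1 at 311 CPM and 2940.5 CPM (ratio 0.106, or 9.46 times higher in WT).

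**Figure D1:**
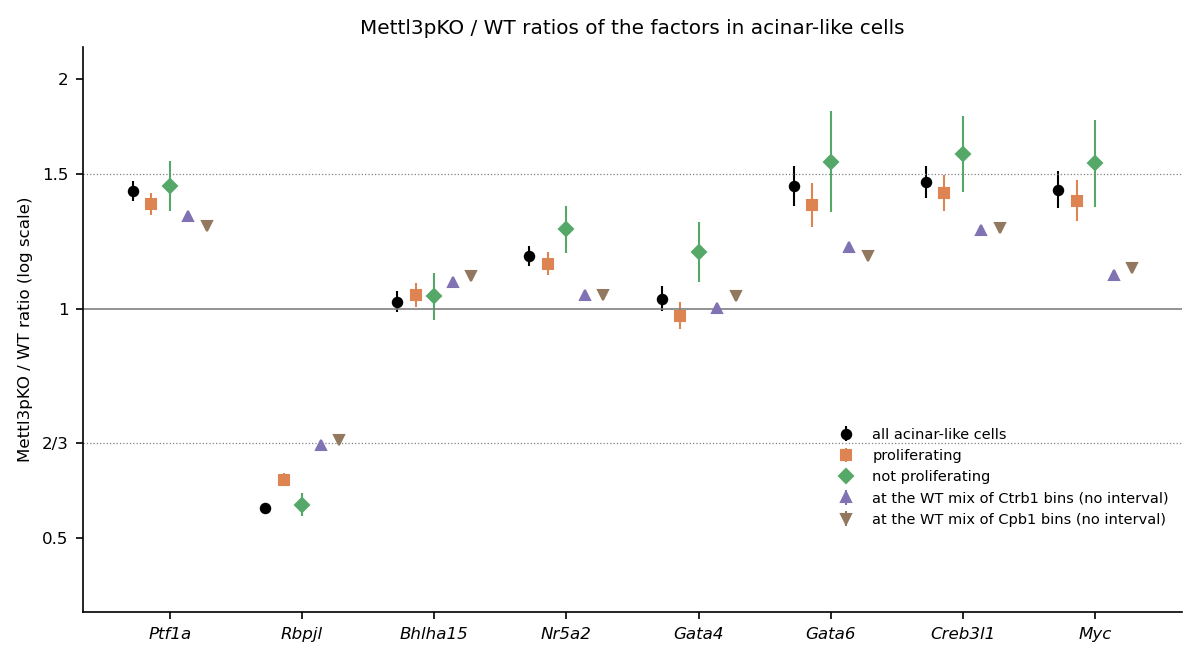
Mettl3pKO/WT ratios (log axis) of the 8 factors in acinar-like cells over all cells, within proliferating and not proliferating cells, and after weighting to the WT mix of Ctrb1 or Cpb1 levels. Bars are 95% intervals of counting error (none for the weighted values), and dotted lines mark 1.5-fold. Rbpjl lies below 1 in every version, at 0.548 over all cells, and Ptf1a above 1, at 1.42 over all cells.

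Detection per cell was compared at equal depth. Each cell was thinned at random to 8000 UMIs, which left out 154 WT and 0 Mettl3pKO acinar-like cells. Rbpjl was then found in 96.5% of Mettl3pKO and 99.4% of WT acinar-like cells, and with at least 3 UMIs in 77.2% and 94.4%. Ptf1a was found in 84.5% (82.9 to 86.0) of Mettl3pKO and 78.4% (76.3 to 80.3) of WT acinar-like cells, and with at least 3 UMIs in 43.4% and 27.1%. The shares with at least 3 UMIs thus went in opposite directions for these partners. Without thinning, Ptf1a was found in 95.7% of Mettl3pKO and 86.7% of WT acinar-like cells. As a background, thinned mesenchyme-like cells, which should lack both genes, had a Ptf1a UMI in 3.94% of Mettl3pKO and 1.75% of WT cells and an Rbpjl UMI in 11.1% and 7.27%. The median depth of mesenchyme-like cells before thinning was 13429 UMIs in Mettl3pKO and 8911 in WT.

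Most acinar-like cells carried UMIs of several factors at once. The median thinned cell had 6 of the 8 factors in Mettl3pKO and 5 in WT. At least 5 factors were found in 1749 of 2118 Mettl3pKO cells (82.6%) and 1185 of 1701 WT cells (69.7%). In duct and trunk-like cells the median was 3 in both libraries. Ptf1a and Rbpjl UMIs occurred together in 81.3% of Mettl3pKO and 77.8% of WT acinar-like cells. Rbpjl was found without Ptf1a in 15.2% of Mettl3pKO and 21.6% of WT cells, and Ptf1a without Rbpjl in 3.21% (2.50 to 4.05) and 0.529% (0.242 to 1.00). The less abundant factors gave thinned shares of 45.0% in Mettl3pKO and 33.7% in WT for Gata6, 59.4% and 44.4% for Creb3l1, and 43.2% and 37.0% for Myc. For Bhlha15 the shares were 77.8% in Mettl3pKO and 78.3% in WT, for Nr5a2 85.3% and 78.1%, and for Gata4 72.9% and 68.7%.

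Within each library the factors differed in how they went with the enzymes of the same cell. Acinar-like cells were put into 3 bins by their thinned Ctrb1 UMIs, with cuts at 162 and 406 UMIs over both libraries. The low, middle and high bins held 1032, 701 and 385 Mettl3pKO cells and 245, 574 and 882 WT cells. Rbpjl was higher in bins of more Ctrb1, at 516, 687 and 951 CPM from the low to the high bin in Mettl3pKO and at 760.2, 1048 and 1431 CPM in WT. The high bin was 1.84 times the low bin in Mettl3pKO and 1.88 times in WT. Rbpjl was lower in Mettl3pKO in each bin, with ratios of 0.678, 0.655 and 0.665 from low to high. Within a bin Mettl3pKO cells also had somewhat fewer Ctrb1 UMIs, with means of 267 in Mettl3pKO and 292 in WT in the middle bin and of 598 and 652 in the high bin.

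Ptf1a ran the other way. It was at 345, 336 and 270.2 CPM from the low to the high Ctrb1 bin in Mettl3pKO, and at 287, 252 and 196 CPM in WT. The ratios of Mettl3pKO to WT were 1.20, 1.34 and 1.38, so that Ptf1a was higher in Mettl3pKO in each bin. Gata6, Creb3l1, Nr5a2 and Myc were also lower in cells rich in Ctrb1. The high bin held 0.564 times the Gata6 of the low bin in Mettl3pKO and 0.427 times in WT. For Myc these values were 0.449 in Mettl3pKO and 0.534 in WT, for Creb3l1 0.613 and 0.594, and for Nr5a2 0.685 and 0.609. For Bhlha15 the high bin held 1.20 times the low bin in Mettl3pKO and 1.26 times in WT. That direction turned in cells not called proliferating (0.965 and 0.824), and with bins cut within each library it was 1.18 in Mettl3pKO and 1.02 (0.961 to 1.09) in WT, so that no direction is given for Bhlha15. For Gata4 it was 0.947 times in Mettl3pKO and 0.804 times in WT.

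The Mettl3pKO to WT ratios changed unevenly when cells of like Ctrb1 level were compared. Nr5a2 had ratios of 0.998, 0.993 and 1.12 from the low to the high bin, against 1.17 over all acinar-like cells. Myc was at 128, 81.9 and 57.6 CPM in Mettl3pKO and at 104, 75.8 and 55.4 CPM in WT, ratios of 1.24, 1.08 and 1.04. Creb3l1 kept ratios of 1.25, 1.25 and 1.29, and Gata6 had 1.06, 1.16 and 1.40. With the Mettl3pKO bins weighted to the WT mix of Ctrb1 bins, the ratio was 0.663 for Rbpjl (0.554 in the same thinned cells without weighting) and 1.32 for Ptf1a (1.41 without). Weighted ratios were 1.27 for Creb3l1 (1.45 without), 1.20 for Gata6 (1.42 without), 1.11 for Myc (1.40 without) and 1.04 for Nr5a2 (1.17 without). Bhlha15 stood at 1.08 and Gata4 at 1.00. Weighting thus brought Nr5a2 and Myc most of the way to 1, and Rbpjl and Ptf1a less.

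Cpb1 differed more between the libraries than Ctrb1. Across Cpb1 bins Rbpjl and Ptf1a went in the same directions as across Ctrb1 bins, with smaller differences between the low and the high bin. The cuts were 0 and 4 thinned UMIs, and the high bin held 217 Mettl3pKO and 1014 WT cells. Rbpjl was at 589, 696 and 900.3 CPM from the low to the high bin in Mettl3pKO and at 897, 1038 and 1326 CPM in WT, with ratios of 0.657, 0.670 and 0.679. Ptf1a was at 343, 315 and 275 CPM in Mettl3pKO and 285, 245 and 208 CPM in WT, with ratios of 1.20, 1.28 and 1.32. The high bin held 1.53 times the Rbpjl of the low bin in Mettl3pKO and 1.48 times in WT. For Ptf1a these values were 0.801 and 0.730, for Nr5a2 0.772 and 0.691, and for Gata6 0.632 and 0.557. They were 0.739 and 0.760 for Creb3l1 and 0.599 and 0.613 for Myc. Weighted to the WT mix of Cpb1 bins, Rbpjl had a ratio of 0.673 and Ptf1a one of 1.28. The low bin holds every cell with 0 Cpb1 UMIs. In the high bin the mean was 21.3 Cpb1 UMIs in Mettl3pKO and 44.1 in WT, so that its cells were less alike than in the other bins.

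Across single cells the Spearman coefficient of Rbpjl with Ctrb1 was 0.374 over 2118 Mettl3pKO cells and 0.427 over 1701 WT cells. It was -0.214 and -0.238 for Nr5a2, -0.193 and -0.236 for Gata6, -0.201 and -0.145 for Myc and -0.152 and -0.175 for Creb3l1. For Ptf1a it was -0.075 in Mettl3pKO and -0.179 in WT, and for Bhlha15 0.092 and 0.021. With Cpb1 the coefficient was 0.208 in Mettl3pKO and 0.326 in WT for Rbpjl, -0.067 and -0.198 for Nr5a2 and -0.091 and -0.178 for Gata6. It was -0.105 and -0.151 for Myc, -0.053 and -0.142 for Creb3l1, -0.068 and -0.146 for Ptf1a and 0.040 and 0.054 for Bhlha15. The cells of a library share its preparation, and these coefficients are descriptions of sparse counts. Since Ctrb1 and the other enzymes take up part of the total, the levels were also computed over a total without enzyme UMIs. On that scale the high over low Ctrb1 bin ratio was 2.14 in Mettl3pKO and 2.28 in WT for Rbpjl, 0.909 and 0.824 for Ptf1a, 0.653 and 0.516 for Gata6 and 0.521 and 0.647 for Myc. For Gata4 it turned to 1.10 in Mettl3pKO while it was 0.972 in WT, so that no direction is given for Gata4.

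**Figure D2:**
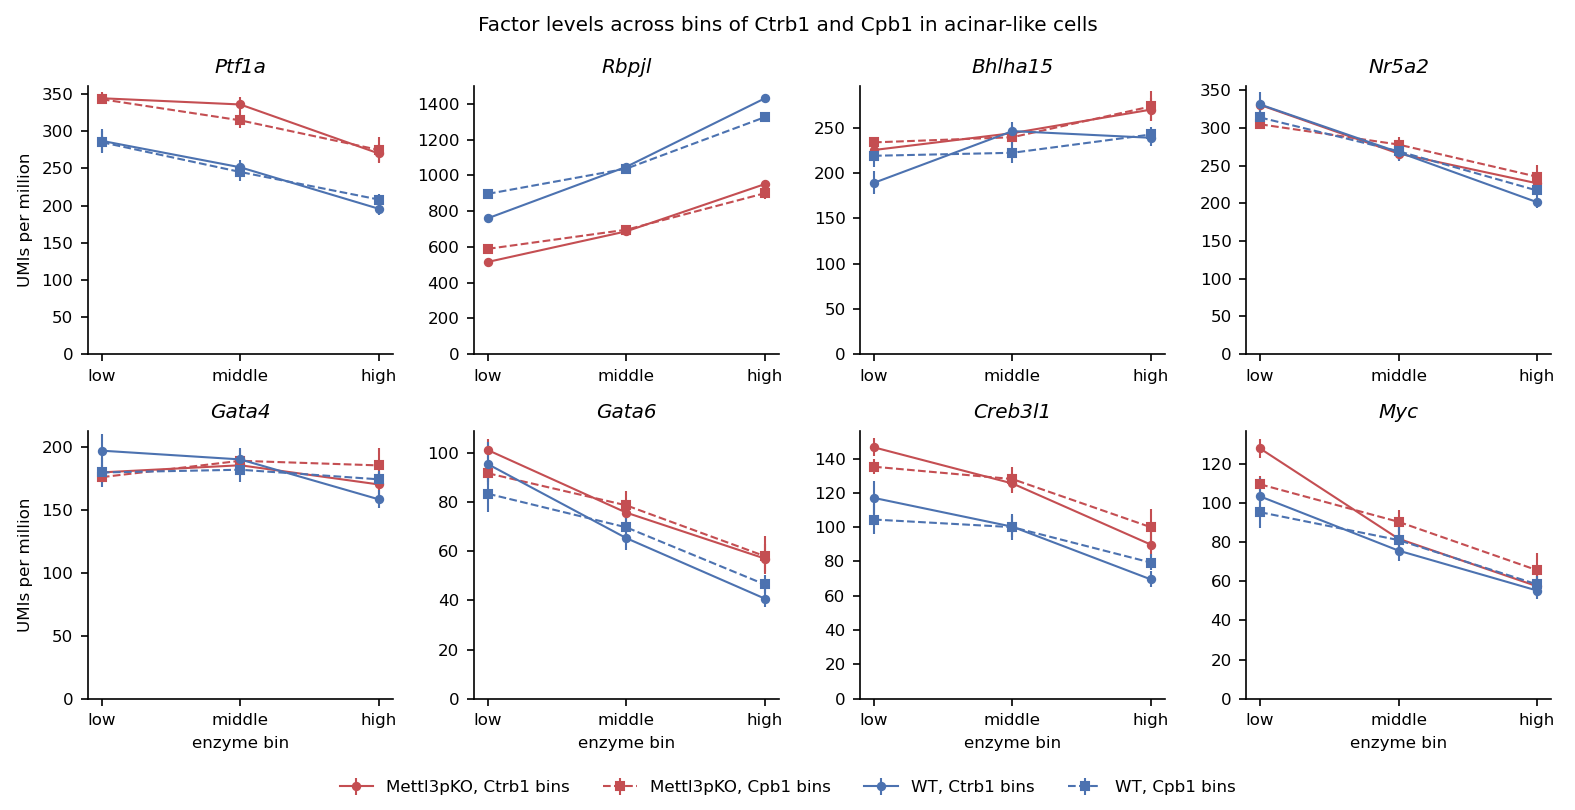
Level of each factor (CPM, axis from 0) in the low, middle and high bins of Ctrb1 and of Cpb1 in acinar-like cells, with 95% Poisson intervals. Rbpjl is higher from bin to bin in both libraries with the Mettl3pKO lines below the WT lines. Ptf1a, Nr5a2, Gata6, Creb3l1 and Myc are lower in the high bin than in the low one.

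Different clusters held most of the acinar-like class in the libraries. A cluster led by Serpina6 and Serpina10 held 811 Mettl3pKO and 104 WT cells, and one led by Serpina6 and Fen1 held 614 and 134. A mitotic cluster led by Ube2c held 294 Mettl3pKO and 26 WT cells, too few in WT to compare. WT cells lay mainly in a cluster led by Try10 and Cpb1 (82 Mettl3pKO and 583 WT cells), one led by Cckar and Spink1 (87 and 362) and one led by the trypsinogens Gm10334 and Prss3 (30 and 310). In the mitotic cluster Mettl3pKO cells had 413 CPM of Ptf1a and 436 CPM of Rbpjl. In the trypsinogen cluster Rbpjl reached 1530.2 CPM in Mettl3pKO and 1683 CPM in WT, and Ptf1a 204 CPM and 168 CPM.

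Ratios within clusters lay to 1 side of the class ratio for most factors. For Rbpjl all lay above the 0.548 of the class. For Ptf1a, Gata6, Creb3l1 and Nr5a2 all lay below their class ratios of 1.42, 1.45, 1.46 and 1.17. Those of Myc, Bhlha15 and Gata4 ran on both sides of theirs. Of 7 acinar-like clusters with at least 30 cells in both libraries, Rbpjl was lower in Mettl3pKO in 6, each with an interval below 1, and the ratios ran from 0.664 to 1.00. The lowest lay in an S phase cluster led by Slfn9 and Rrm2, at 711 CPM in Mettl3pKO and 1071 CPM in WT. Ctrb1 was also lower in Mettl3pKO in that cluster (ratio 0.705), so that its cells were not alike in enzyme level. In the Serpina6 and Serpina10 cluster, whose Ctrb1 level was alike (ratio 1.00), Rbpjl was at 701 CPM in Mettl3pKO and 827 CPM in WT. Ptf1a had ratios of 1.00 to 1.22, with an interval above 1 in 2 of the 7 clusters. Creb3l1 ran from 0.977 to 1.37 with 3 intervals above 1, Gata6 from 0.818 to 1.37 with 1, and Nr5a2 from 0.881 to 1.13 with 1 above and 1 below. Myc varied most, from 0.692 to 1.99. Its highest ratio, above the 1.43 of the class, came from the S phase cluster, with 90.1 CPM in Mettl3pKO and 45.2 CPM in WT. Cpb1 was lower in all 7 clusters (0.319 to 0.608).

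**Figure D3:**
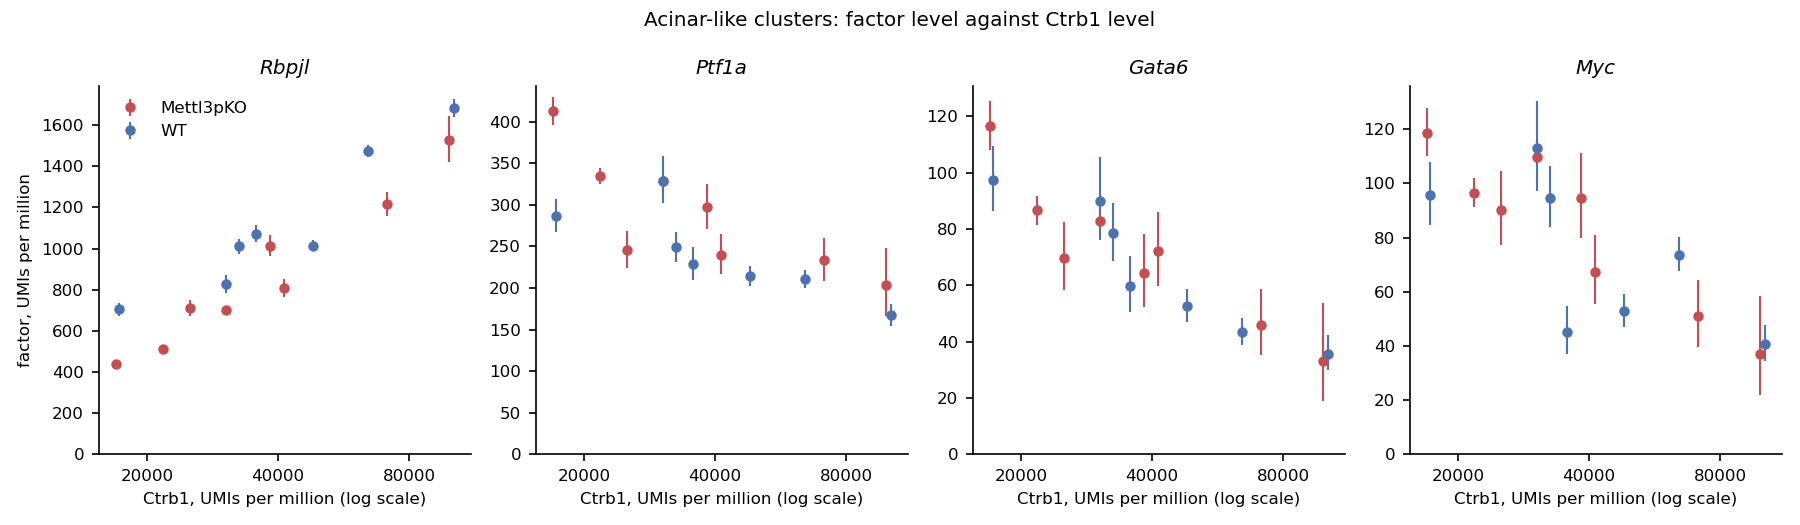
Level of Rbpjl, Ptf1a, Gata6 and Myc (CPM, axis from 0) against the Ctrb1 level (log axis) in the acinar-like clusters of at least 30 cells, 1 point per cluster and library, with 95% Poisson intervals. Rbpjl is highest, at 1530.2 in Mettl3pKO and 1683 in WT, in the cluster richest in Ctrb1, where Gata6 and Myc are low.

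Rbpjl and Ptf1a differed in level between proliferating and not proliferating cells, and between the libraries within both kinds. This did not hold for every factor. Counting error did not separate the libraries for Gata4 in proliferating cells (ratio 0.978, 0.939 to 1.02). Nor did it for Bhlha15 in not proliferating cells (1.04, 0.966 to 1.11). Rbpjl was at 615 CPM in proliferating Mettl3pKO cells and 1031 CPM in proliferating WT cells, a ratio of 0.597 (0.585 to 0.608). Among cells not called proliferating it was at 869 CPM in Mettl3pKO and 1570.4 CPM in WT, a ratio of 0.554 (0.534 to 0.574). Ptf1a had ratios of 1.37 in proliferating and 1.45 in not proliferating cells. Myc was at 101 CPM in proliferating and 98.1 CPM in not proliferating Mettl3pKO cells, a ratio of 1.03 (0.935 to 1.14), against 1.15 (1.04 to 1.28) in WT. Its Mettl3pKO to WT ratio was 1.38 in proliferating and 1.55 in not proliferating cells, and that of Creb3l1 1.42 and 1.59. Gata4 was at 181 CPM in Mettl3pKO and 185 CPM in WT among proliferating cells, and at 177 CPM and 149 CPM among the others.

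Cells of male and female embryos were unequally mixed in the libraries. Of the acinar-like cells, 1101 in Mettl3pKO and 171 in WT had UMIs of Y-linked genes without Xist, and 430 and 1367 had Xist and no Y-linked UMI. Rbpjl had a ratio of 0.536 in the cells with a Y-linked UMI and 0.512 in those with Xist, and Ptf1a 1.64 and 1.39. Gata6 had a ratio of 1.07 (0.914 to 1.25) in cells with a Y-linked UMI and 1.63 (1.49 to 1.78) in cells with Xist. For Myc these ratios were 1.11 (0.961 to 1.29) and 1.75 (1.62 to 1.90), and for Creb3l1 1.79 (1.53 to 2.10) and 1.43 (1.33 to 1.54). The counting intervals for Gata6 and Myc thus include 1 in cells with a Y-linked UMI. Sex and embryo cannot be told apart here, and the part of either in the ratios was not tested.

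Outside the acinar-like class the factors fell into those found nearly nowhere else and those with a second home. To judge RNA carried over from acinar cells, each factor's level in a class was set against the median of the acinar enzymes in it, both as a percentage of the acinar-like level. In duct and trunk-like cells that enzyme median was 4.66% in Mettl3pKO and 1.90% in WT. Ptf1a stood there at 6.22% in Mettl3pKO and 1.72% in WT, Rbpjl at 7.69% and 1.84%, and Bhlha15 at 11.5 CPM in Mettl3pKO and 4.81 CPM in WT. Ptf1a was at 20.5 CPM in Mettl3pKO and 3.98 CPM in WT (ratio 5.14), and Rbpjl at 49.7 CPM and 21.6 CPM (ratio 2.30). These 3 factors thus lay near the enzymes in both libraries.

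Nr5a2 and Gata6 were factors of the duct and trunk as well. Nr5a2 was at 299 CPM in Mettl3pKO and 351 CPM in WT duct and trunk-like cells, 103% and 141% of its acinar-like level, with a ratio of 0.852 (0.806 to 0.900). Different clusters held the class in the libraries. One led by Spp1 and Kif23 held 239 Mettl3pKO and 371 WT cells, one led by Spp1 and Gm14226 held 52 and 422, one led by Onecut2 and Cdh6 held 63 and 52, and one led by Tinagl1 and Fgfr3 held 10 and 408. Within the first and second of these Nr5a2 had ratios of 0.963 (0.893 to 1.04) and 0.981 (0.868 to 1.11), so that both intervals included 1. Within the third it had a ratio of 0.809 (0.644 to 1.02), below that of the class, with an interval that also included 1. Gata6 was at 280.4 CPM in Mettl3pKO and 258 CPM in WT (ratio 1.09), which was 329% and 438% of its acinar-like level. Gata4 was at only 20.3 CPM in Mettl3pKO and 13.1 CPM in WT (ratio 1.55). The pair of GATA factors thus had opposite orders, Gata4 highest in acinar-like cells and Gata6 higher in duct and trunk-like than in acinar-like cells. Creb3l1 was at 77.1 CPM in Mettl3pKO and 82.6 CPM in WT and Myc at 38.5 CPM and 30.3 CPM. By the 1.5-fold rule 4 of the 8 factors were higher in Mettl3pKO duct and trunk-like cells (Ptf1a, Rbpjl, Bhlha15 and Gata4) and 0 lower, beside 12.1% and 9.02% of all genes.

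Mesothelium-like cells, the lining of the organ, held the highest Gata6 level of any class, 347 CPM in 77 Mettl3pKO cells and 565 CPM in 202 WT cells. That ratio was 0.615 (0.550 to 0.687), or 1.63 times higher in WT. Gata4 was at 68.0 CPM in Mettl3pKO and 80.6 CPM in WT there (0.845, 0.643 to 1.10), its highest level outside the acinar-like and erythroid-like classes among those named. Creb3l1 was at 219 CPM in Mettl3pKO and 311 CPM in WT (0.705, 0.610 to 0.813). The acinar enzyme median in mesothelium-like cells was 19.2% of the acinar-like level in Mettl3pKO and 1.22% in WT. The part of this unequal share of acinar RNA in the mesothelium-like ratios was not tested. In mesenchyme-like cells Creb3l1 was at 251 CPM in Mettl3pKO and 286 CPM in WT, 193% and 322% of its acinar-like level, while Gata6 was at 93.6 CPM and 95.7 CPM and Myc at 56.2 CPM and 42.6 CPM. Creb3l1 was also high in immune-like cells, which were led by mast cell genes such as Cpa3 and Cma1, at 209.6 CPM in Mettl3pKO and 255 CPM in WT. Creb3l1 thus had its highest levels in classes that do not descend from Pdx1+ progenitors.

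Islet classes held Gata6, Bhlha15 and Creb3l1. Alpha-like cells had Gata6 at 99.7 CPM in Mettl3pKO and 116 CPM in WT. Beta-like cells had Bhlha15 at 41.2 CPM in Mettl3pKO and 39.6 CPM in WT (17.2% and 16.9% of its acinar-like level, where the enzyme median was 3.90% and 1.89%). Creb3l1 in beta-like cells was at 48.7 CPM in Mettl3pKO and 35.9 CPM in WT. Bhlha15 in beta-like cells thus stood above the enzymes and was alike between the libraries. Endocrine progenitor-like, delta-like, endothelium-like and smooth muscle-like cells had under 30 cells in Mettl3pKO, so that their levels are from WT alone. There Gata6 was at 177 CPM in endocrine progenitor-like and 73.4 CPM in delta-like cells, Nr5a2 at 52.0 CPM and 54.5 CPM, and Myc at 65.5 CPM in smooth muscle-like cells. Ptf1a had 0 UMIs in delta-like cells, which allows up to 3.34 CPM, and Gata4 had 0 in endothelium-like cells, which allows up to 4.30 CPM.

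In order of level over the named classes, acinar-like cells came first for Ptf1a, Rbpjl, Bhlha15, Gata4 and Myc in both libraries. Erythroid-like cells came next for all of these but Gata4 in WT and Myc in WT, beside their enzyme medians given below. After these, the WT levels of Ptf1a in endothelium-like, beta-like, alpha-like, duct and trunk-like and immune-like cells lay between 3.95 and 4.30 CPM and did not differ beyond counting error. For Myc in WT, acinar-like (70.3 CPM, 67.2 to 73.6) and smooth muscle-like cells (65.5 CPM, 46.8 to 89.3) did not differ beyond counting error either. Gata6 ran from mesothelium-like over duct and trunk-like and alpha-like to mesenchyme-like cells in Mettl3pKO, the last pair overlapping, with acinar-like cells next. In WT endocrine progenitor-like cells stood between duct and trunk-like and alpha-like cells for Gata6, and acinar-like cells came after delta-like ones. For Creb3l1 mesenchyme-like and mesothelium-like cells came first, overlapping in both libraries, then immune-like and then acinar-like cells. The immune-like interval also overlapped that of mesothelium-like cells in Mettl3pKO and that of mesenchyme-like cells in WT. Nr5a2 was highest in duct and trunk-like cells, whose interval overlapped that of acinar-like cells in Mettl3pKO (284.9 to 313 against 286 to 297) but not in WT (341 to 360.5 against 243 to 255).

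**Figure D4:**
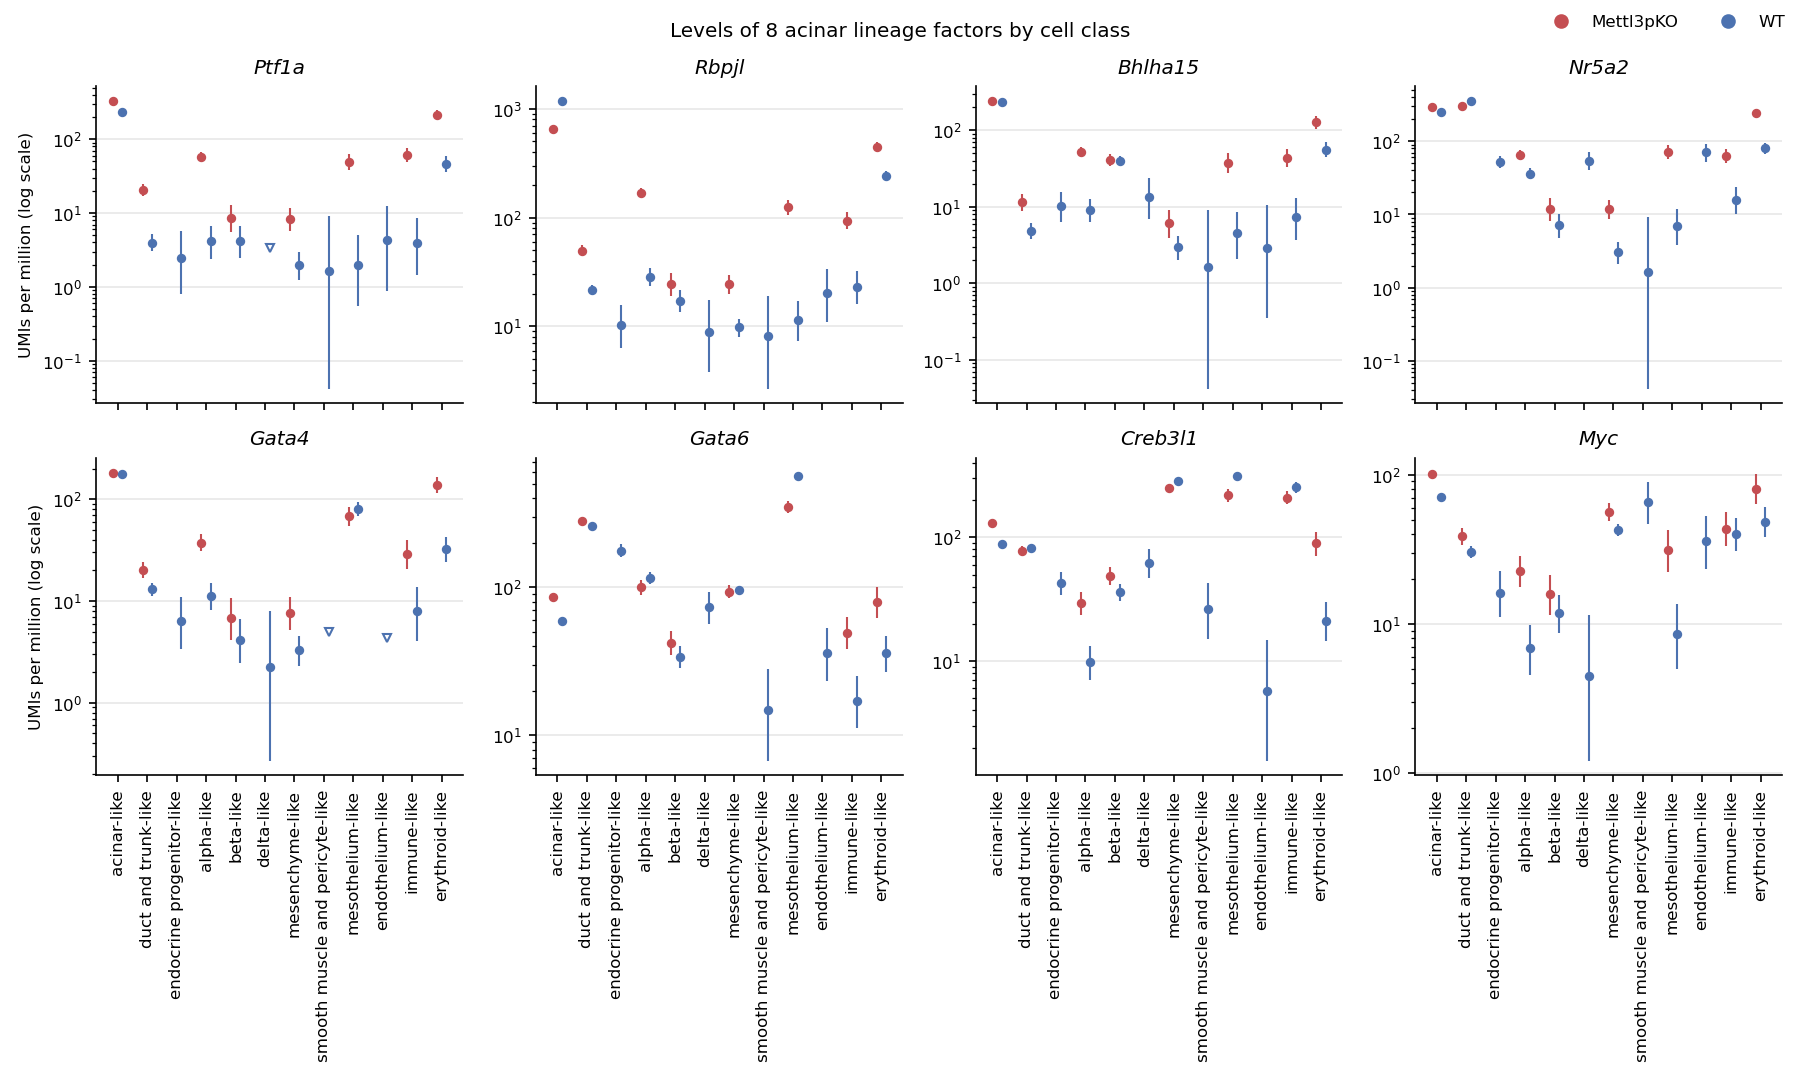
Level of each factor (CPM, log axis) by cell class and library, with 95% Poisson intervals. Open triangles mark the level that a count of 0 allows, and classes with under 30 cells in a library are not drawn. Ptf1a, Rbpjl and Bhlha15 are highest in acinar-like cells, Gata6 in mesothelium-like cells, and Creb3l1 in mesenchyme-like and mesothelium-like cells.

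In some classes the digestive enzyme genes were also higher in Mettl3pKO, and in others they were not. Their median log2 ratio of CPM was 2.68 in alpha-like (24 of 26 higher, 1 lower), 2.85 in mesothelium-like (19 of 24 higher), 2.06 in immune-like (17 of 20 higher) and 1.02 in erythroid-like cells (20 of 30 higher, 4 lower). It was 0.11 in duct and trunk-like (8 higher and 11 lower of 29), 0.05 in beta-like (6 and 7 of 25) and 0.20 in mesenchyme-like cells (8 and 8 of 26). Rbpjl had ratios of 2.30 in duct and trunk-like and 2.49 in mesenchyme-like cells, and Ptf1a 5.14 in duct and trunk-like cells, so that these were higher where the enzymes as a list were not.

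Set against the acinar-like level of the same library, which is lower in Mettl3pKO for most enzymes, the comparison reads differently. In alpha-like cells Rbpjl was at 169.8 CPM in Mettl3pKO and 28.6 CPM in WT and Ptf1a at 58.2 CPM and 4.16 CPM. As a percentage of the acinar-like level Rbpjl was 26.3% and 2.43% and Ptf1a 17.7% and 1.797%, beside an enzyme median of 22.4% in Mettl3pKO and 1.82% in WT. In mesothelium-like cells Rbpjl was at 124 CPM in Mettl3pKO and 11.5 CPM in WT, beside an enzyme median of 19.2% and 1.22%. That median was 12.5% in Mettl3pKO and 1.67% in WT for immune-like cells and 64.7% and 17.1% for erythroid-like cells. In mesenchyme-like cells it was 2.25% in Mettl3pKO and 1.05% in WT, beside 3.78% and 0.832% for Rbpjl. On this scale the enzyme median was higher in Mettl3pKO in each of these classes, and the part of carried-over RNA in these ratios was not tested.

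Counts past 1.5-fold in these classes are given beside the shares of all genes. Higher in Mettl3pKO were 7 of the 8 factors in alpha-like cells (11.5% of all genes), 3 in beta-like (12.4%), 5 in mesenchyme-like (8.62%), 6 in immune-like (17.5%), 8 in erythroid-like (29%) and 5 in mesothelium-like cells (14.3%). Lower was 1 factor, Gata6 in mesothelium-like cells (12.7%), and 0 in alpha-like (6.57%), beta-like (4.63%), mesenchyme-like (5.52%), immune-like (9.9%) and erythroid-like cells (27.3%). The erythroid-like class lay in different clusters, since one led by Alas2, with acinar markers as its next best class, held 46 of the 48 Mettl3pKO and 42 of the 111 WT cells, and one led by Car2 and Slc4a1 held 2 and 69. Its count thus compares unlike cells. The alpha-like ratio of Rbpjl depended on which cells made up the class, as it was 5.94 as analysed and 0.975 with the cells marked as doublets kept. In immune-like cells the Creb3l1 ratio was 0.823 as analysed and 17.7 with the top 5% of doublet scores left out.

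**Figure D5:**
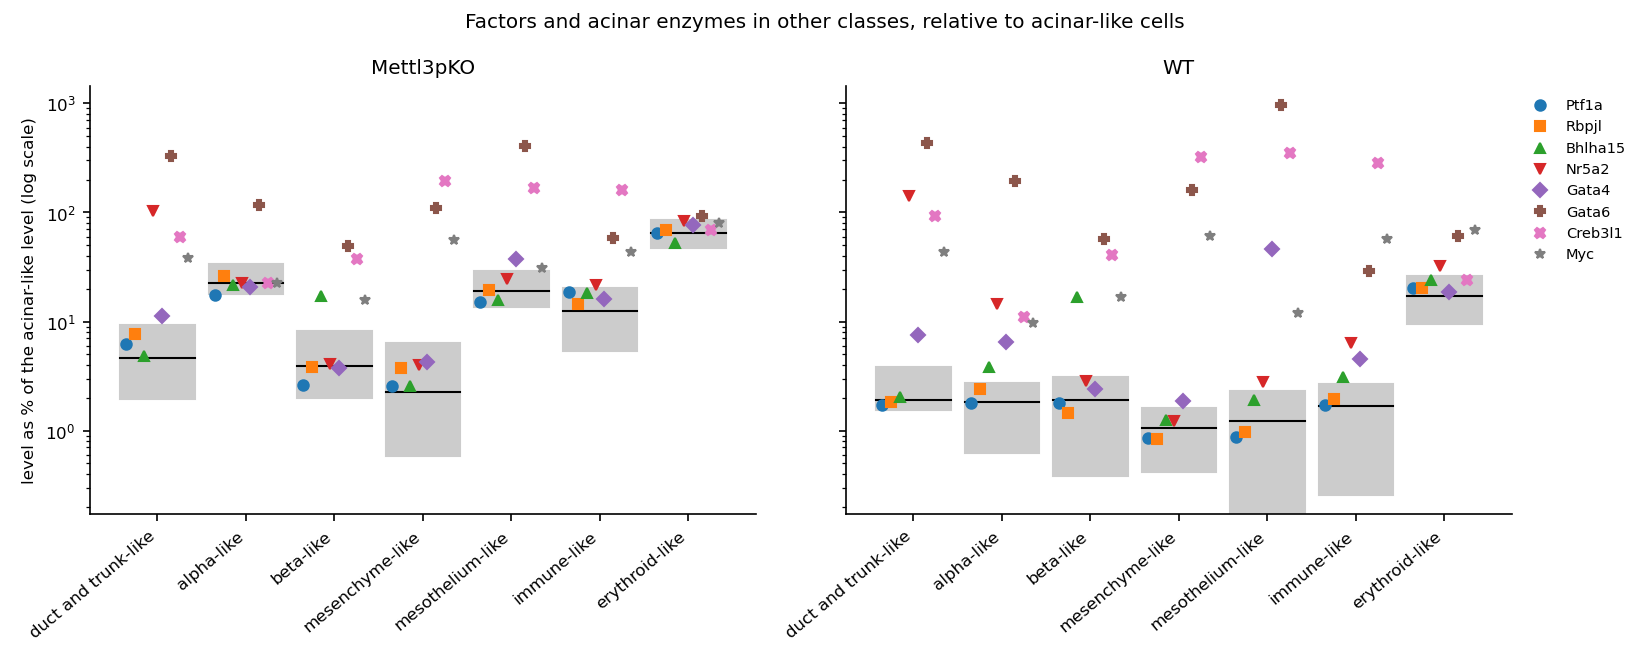
Level of each factor in 7 other classes as a percentage of its acinar-like level (log axis), Mettl3pKO on the left and WT on the right. Grey boxes give the range and black lines the median of the acinar enzymes in the class. Ptf1a and Rbpjl lie in or near the boxes in both libraries, whereas Gata6 and Creb3l1 lie above them in mesenchyme-like and mesothelium-like cells.

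Genes that work with these factors were followed as lists in the acinar-like class, where 20.8% of all genes were higher and 8.85% lower by the 1.5-fold rule. Of 8 partners of PTF1 and other helix-loop-helix genes, 1 was higher in Mettl3pKO by the 1.5-fold rule, the Notch target Hes1 (1.59), and 0 were lower. Rbpj, the partner that Rbpjl replaces, had a ratio of 1.23 and the inhibitor Id3 0.832. The list's median log2 ratio was 0.22, against 0.17 over all genes. Of 9 measured factors also tied to acinar cells, Foxa2 (1.56) and Foxa3 (1.54) were higher and 0 lower, a share near the 20.8% of all genes. Prox1 had 1.48 and Pdx1 0.789, and the median was 0.42. Of 6 GATA relatives and cofactors only Zfpm1, a GATA cofactor, was measured, with a ratio of 1.70.

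The MYC network had the highest median among the lists with more than 1 measured gene. 4 of its 8 members were higher, namely Mycl (2.79), Mycn (1.59), Mxd3 (1.57) and Mxi1 (1.51), beside 20.8% of all genes, and 0 were lower. Max, the partner of Myc on DNA, had a ratio of 1.22, Mnt 1.48, Mxd1 1.00 and Mxd4 0.856. The median log2 ratio was 0.58. Of 15 nucleolar and growth genes linked to MYC, Polr1b (1.76) and Gar1 (1.51) were higher and 0 lower, with Ncl at 1.31, Ldha at 0.672 and a median of -0.05. The median of the MYC network list, of which only Mycn and Mycl are Myc relatives, thus stood above that of all genes. That of the MYC-linked growth genes stood below it. Among 9 proliferation genes 4 were higher, led by Cenpf (2.10) and Aurkb (1.79), and 0 were lower.

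Lists around Creb3l1, Bhlha15 and Nr5a2 had lower medians. Of 8 CREB3 and endoplasmic reticulum stress genes, the protease Mbtps2 was higher (1.72) and Creb3l3 lower (0.271, from 8 UMIs in Mettl3pKO and 20 in WT). Mbtps1, the other protease that releases CREB3 factors, had 1.48 and Atf6 0.703, with a median log2 ratio of -0.26. Of 6 genes linked to Bhlha15, the vesicle GTPase Rab26 was lower (0.571) and 0 were higher, with Atp2c2 at 1.39, Copz2 at 0.762 and a median of -0.23. Of 2 measured nuclear receptor partners, the bile acid receptor Nr1h4 was lower (0.305), while Nr0b2 had 0.956. Of 37 measured digestive enzyme and zymogen genes 28 were lower and 1, the granule membrane protein Gp2, was higher (2.22), beside 8.85% and 20.8% of all genes. Their median was -1.15, and the trypsinogens Prss1 (0.0530), Gm5771 (0.0666), Gm10334 (0.0729) and Prss3 (0.0743) lay farthest from 1. These trypsinogens are near-identical copies among which reads may be shared, so that their single values are uncertain.

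Over the 20 levels of classes with at least 30 cells, counted per library, the genes most like each factor were named by Pearson's r of log2(CPM + 1). Rbpjl went most with Clps (0.986), Ctrb1 (0.985) and Serpini2 (0.982), and Ptf1a with Cel (0.977), Serpina6 (0.968) and Clps (0.962). Bhlha15 went most with Edem2 (0.964), Rgs11 (0.953) and Slc39a5 (0.926). Gata4 went with Ccng1 (0.950), Car9 (0.929) and Amy1 (0.926), and Nr5a2 with Cldn3 (0.931), St14 (0.930) and Clu (0.927). Gata6 went with 1010001N08Rik (0.952), Sbsn and Sema3b (both 0.916). Creb3l1 had the lowest of these values, with Metrnl (0.823), Pqlc3 (0.819) and Mpp6 (0.798). Myc went with Eef1g (0.909), Metrn (0.905) and Nudcd2 (0.903). The nearest genes of Rbpjl and Ptf1a were thus enzyme or secreted protein genes of acinar cells, whereas those of Nr5a2 included the epithelial genes Cldn3 and St14. The 20 points share libraries and carried-over RNA, and r is a description.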

How the data were processed

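The authors deposited raw UMI counts for each gene in each cell, 1 table per library, made with the BD WTA Rhapsody Analysis Pipeline 1.8 and a mouse STAR index per the file headers. The submitters' processing notes name the build mm10 and Seurat, whose role is not stated. The last, incomplete cell of each table was dropped. Filters required 200 genes and allowed 25% mitochondrial UMIs. Scrublet called 1 doublet among 3623 Mettl3pKO cells (0.0276%) and 342 among 6372 WT cells (5.37%). All were removed, but the caller had not worked on Mettl3pKO, where doublets remain. The cells were scaled to 10000 UMIs, and 2000 variable genes without the 8 factors gave 30 principal components, 15 neighbours and 30 Leiden clusters at resolution 1 (scanpy 1.11.5, igraph 0.11.9, Python 3.11.15). A cluster took the class whose markers scored highest on a log2 scale, with at least 3 markers at 0.1 per 10000 UMIs. A cluster whose median doublet score exceeded 0.1 got no name. The scoring was set after values were seen, and the classes need not be the submitters'.

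Levels are counts summed per library and class, per 1000000 UMIs. Intervals are exact Poisson for levels, exact conditional binomial for ratios and Clopper-Pearson for shares (SciPy 1.17.1, checked on simulated data). They cover counting error only, and a count of 0 allows up to 3 counts. Medians of log2 ratios were computed with 0.5 UMIs added. Classes with fewer than 30 cells in a library were not compared. The 8 factors, Mettl3, Ctrb1 and Cpb1 are named throughout. Of each list, the 2 to 4 members with the ratio farthest from 1 are named, and the 3 most alike genes were taken among those with at least 200 UMIs. Rbpj, Max, Ncl and other list members given for their role, or to complete the MYC network, were chosen with values known. Members, marker lists and gene lists were chosen with earlier results of these data known. Alternatives covered filters, doublets, clustering, the denominator, depth, the weight of cells, the mix of embryos and the bins. Sequences are RefSeq windows of GRCm38.p6.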

Additional observations from a re-analysis of the deposited data

Results flagged for a closer look

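Rbpjl was lower in Mettl3pKO than in WT acinar-like cells (ratio 0.548) but higher in other classes as analysed. The ratio was 5.94 in alpha-like, 2.30 in duct and trunk-like, 1.84 in erythroid-like, 4.07 in immune-like, 2.49 in mesenchyme-like and 10.8 in mesothelium-like cells. These opposite directions come from 1 library per genotype, and the difference between classes was not tested. The alpha-like ratio fell below 1 with marked doublets kept and at Leiden resolution 2, and the mesenchyme-like ratio in cells with Xist. The median log2 ratio of the digestive enzyme genes was 2.68, 0.11, 1.02, 2.06, 0.20 and 2.85 in these classes in the same order. As a percentage of the acinar-like level, the enzyme median was higher in Mettl3pKO in each of them. It was 4.66% in Mettl3pKO and 1.90% in WT in duct and trunk-like cells, and 2.25% and 1.05% in mesenchyme-like cells. The part of carried-over RNA in the Rbpjl ratios was not tested.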

How the results depend on the processing

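In acinar-like cells 17 alternatives were run per factor, and none moved a ratio by more than 1.5 times. Ptf1a (1.22 to 1.64), Gata6 (1.07 to 1.63), Creb3l1 (1.22 to 1.79) and Myc (1.11 to 1.75) stayed above 1 and Rbpjl (0.512 to 0.685) below 1 in all 17. Nr5a2 kept its direction in 16, Bhlha15 (0.953 to 1.12) in 15 and Gata4 (0.927 to 1.09) in 13. Nr5a2 was 0.979 without the clusters led by Cckar and Spink1, by Try10 and Cpb1 and by Gm10334 and Prss3. The number of factors at least 1.5-fold higher, 0 as analysed, was 2 with mitochondrial, ribosomal protein and globin UMIs left out of the total, 1 after thinning to 8000 UMIs, 3 as a mean over cells and 2 in cells with a Y-linked UMI or with Xist. The number lower, 1 as analysed, was 0 without those clusters led by Cckar, Try10 and Gm10334, and Rbpjl then had 0.685. The cause of these changes was not tested.

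Ratios in small classes turned with the cells taken. In alpha-like cells Nr5a2 was 0.822 and Creb3l1 0.687 under the stricter filter, 0.730 and 0.695 with no filter, 0.529 and 0.676 with marked doublets kept, 0.729 and 0.733 with the factors among the variable genes, and 0.571 and 0.879 at Leiden resolution 2. Rbpjl in alpha-like cells was 0.975 with marked doublets kept and 0.873 at resolution 2, and Creb3l1 in beta-like cells 0.795 and 0.803. Creb3l1 in immune-like cells was 1.08 in cells with a Y-linked UMI and 17.7 with the top 5% of doublet scores left out, and Rbpjl in mesenchyme-like cells 0.783 in cells with Xist. Bhlha15 was lower in the high than in the low Ctrb1 bin among cells not called proliferating (0.965 in Mettl3pKO, 0.824 in WT). No paired analysis was possible because there is 1 library per genotype.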
